A study of Mus musculus with 2 samples.

Results

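The Il22 and Ifng locus was examined as the 380 kb of mouse chromosome 10 from 117600000 to 117980000 (mm9), which holds Il22 at about 117642000 to 117648000 and Ifng at about 117878000 to 117883000. The interval was chosen by gene position, and 31 of the 86150 STAT sites found over the whole genome lay in it. Reads came from 2 chromatin immunoprecipitation sequencing libraries of T helper 17 (Th17) cells, 1 made with antibodies to STAT5A and to STAT5B used together and 1 with an antibody to STAT3. The cells of both libraries were wild-type C57BL/6J CD4 T cells, sorted as naive cells and polarised for 3 days with plate-bound anti-CD3 and anti-CD28, TGF-beta at 2 ng/ml and IL-6 at 20 ng/ml, with antibodies to IL-2 and IL-4 added. The labels give the anti-IL-2 dose as 100 IU/ml, in the unit of the cytokine, and do not settle if IL-2 was neutralised. Before fixation, the cells of the STAT5 library were restimulated for 30 minutes with IL-2 (200 IU/ml) and those of the STAT3 library for 30 minutes with IL-6 (40 ng/ml). Antibody and cytokine therefore differed together and cannot be told apart. There was 1 library per antibody and no control library was analysed here, so no difference has a replicate check and all intervals cover counting error only. Neither library measures RNA, and the Th17 identity of the cells was not checked.

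Il22 encodes a cytokine of the IL-10 family that Th17 cells, Th22 cells and innate lymphoid cells release, and that acts on epithelial cells at barriers. Ifng encodes interferon-gamma, the signature cytokine of Th1 cells, which activates macrophages. STAT3 and STAT5 are transcription factors that are phosphorylated at cytokine receptors, enter the nucleus as dimers and bind gamma-activated sequences, which have TTC and GAA half-sites a few bases apart. IL-6 acts mainly through STAT3 and IL-2 mainly through STAT5. Ifng is known for a series of conserved noncoding elements far on either side of the gene, named by their distance in kb from its start, and for distant sites of the insulator protein CTCF.

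The gene starts are shown first because few reads lay there in comparison with the distal sites described below. The sequences are from RefSeq on GRCm38.p6 and span 250 bases before to 50 bases after each start, with the plus strand of chromosome 10 read 5′ to 3′ for both genes. Both genes matched the promoter table. Capitals mark TTCNNNGAA, and TTCNNNNGAA was also searched for. These sequences read the same way on both strands, and the motifs did not overlap.
Il22, chr10:118204714-118205013 (GRCm38.p6, plus strand): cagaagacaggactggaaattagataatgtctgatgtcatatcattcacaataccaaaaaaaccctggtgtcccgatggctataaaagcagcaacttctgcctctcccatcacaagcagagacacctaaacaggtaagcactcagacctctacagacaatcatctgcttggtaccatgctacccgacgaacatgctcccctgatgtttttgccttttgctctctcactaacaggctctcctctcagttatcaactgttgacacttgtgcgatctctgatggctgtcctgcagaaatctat
Ifng, chr10:118440796-118441095 (GRCm38.p6, plus strand): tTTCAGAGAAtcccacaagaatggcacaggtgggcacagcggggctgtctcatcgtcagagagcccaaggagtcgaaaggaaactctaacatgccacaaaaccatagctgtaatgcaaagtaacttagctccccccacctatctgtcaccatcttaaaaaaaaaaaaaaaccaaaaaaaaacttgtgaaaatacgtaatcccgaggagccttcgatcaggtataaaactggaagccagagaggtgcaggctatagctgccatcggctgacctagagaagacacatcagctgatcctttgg
Il22 longest run shared with Iltifb: tcccctgatgtttttgccttttgctctctc

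The Ifng promoter held 1 match to TTCNNNGAA, from 249 to 241 bases before the start, and the Il22 promoter held none. Of the 32851 promoters in the table, 8.30% held TTCNNNGAA and 6.95% held TTCNNNNGAA, which was in neither gene's window. A match is a run of letters and not a binding site. RefSeq places Iltifb, a close relative of Il22, and 12 pseudogenes between Il22 and Ifng. It lists Mdm1 and the long noncoding RNA gene Gm40775 directly before Il22, and that of Ifngas1 directly beyond Ifng. Sites are named here by their distance from Il22 or Ifng alone, and which gene a site acts on was not tested. The run of 30 bases printed last is identical in the promoter windows of Il22 and Iltifb, and 11 of the 276 stretches of 25 bases in the Il22 window occur in that of Iltifb. Reads were 25 nt long, so a read from such a stretch fits either gene.

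A larger part of the reads of the locus lay in called regions with STAT5 than with STAT3, as was so over the whole genome. The tall regions were distal to both genes. The locus held 5154 of 17963766 nuclear STAT5 reads and 4113 of 20784388 nuclear STAT3 reads. In RPM, the reads per 1000000 nuclear reads of a library, this was 0.755 RPM per kb with STAT5 and 0.521 RPM per kb with STAT3, a ratio of 1.45 (exact 95% interval 1.39 to 1.51). Regions were called where windows of 200 bp held at least 5 reads and at least 4-fold more than the genome-wide, 5 kb and 10 kb means, at a Benjamini-Hochberg adjusted Poisson p of 1e-05 or below. There were 27 STAT5 and 17 STAT3 regions, which held 59.4% of the STAT5 reads of the locus (exact 95% interval 58.1 to 60.8%) and 35.4% of its STAT3 reads (34.0 to 36.9%). Over the genome, there were 70559 STAT5 and 56921 STAT3 regions, which held 36.2% of STAT5 and 21.4% of STAT3 reads. Of all windows with a read in the genome 1.5% were called with STAT5 and 0.862% with STAT3, and of those in the locus 3.98% and 1.88%.

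**Figure D1:**
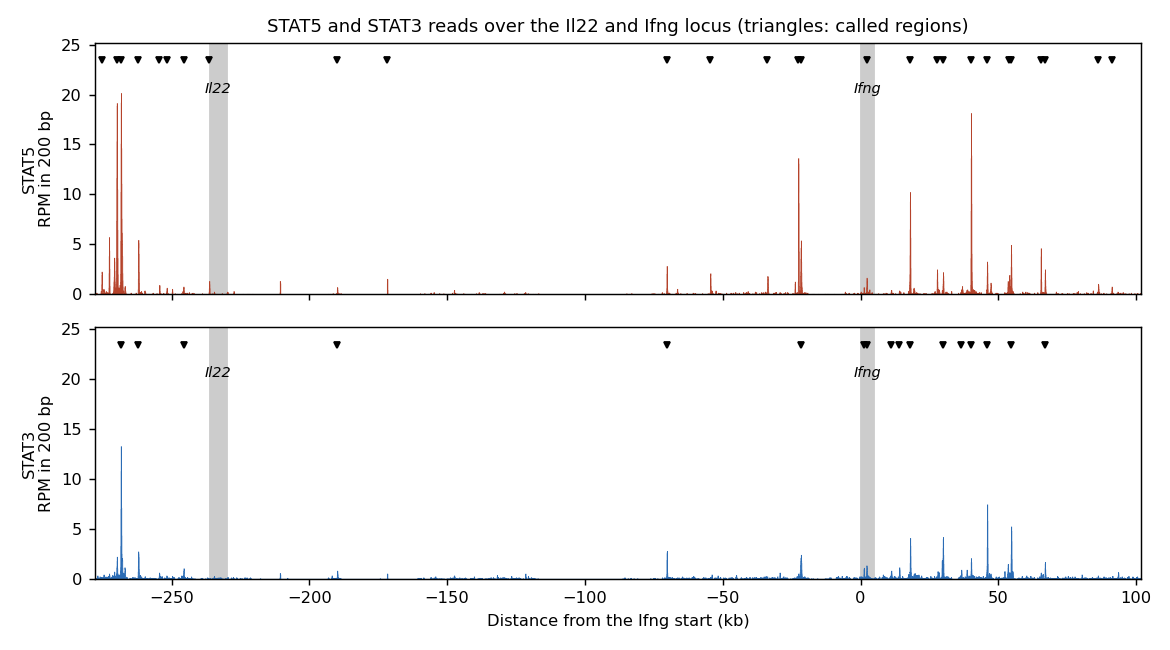
STAT5 (top) and STAT3 (bottom) RPM in windows of 200 bp with a step of 50 bp, against distance in kb from the Ifng start, with the genes shaded and triangles at called regions. The tallest windows of both libraries lie over 30 kb upstream of Il22, and the body of Il22 carries few reads.

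Overlapping regions were merged into the 31 sites, of which 13 were regions of both libraries, 14 of STAT5 only and 4 of STAT3 only. The shared part was 41.9% of sites, against 47.7% over the genome. Sites of STAT5 only were 45.2%, against 34.1%, and those of STAT3 only 12.9%, against 18.2%. With 31 sites nothing is read from these shares. Each site was counted in 400 bp around its summit, where the genome-wide mean is 3.04 STAT5 and 3.52 STAT3 reads. Sites had 9 to 534 STAT5 reads (median 43) and 1 to 372 STAT3 reads (median 22). The 3 sites tallest with STAT5 held 47.2% of the STAT5 reads counted at all 31. As an alternative to RPM, the libraries were scaled by their reads in 10 kb bins without a region, here called background scaling, which multiplies every ratio by 1.38. Distances are from the gene starts given above, which are known to about 1 kb.

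Upstream of Il22, 2 adjacent sites were the tallest of the locus with STAT5, and 1 of them was the tallest with STAT3. The site 32.3 kb upstream, from 117609401 to 117609850, had 534 STAT5 reads (29.7 RPM) and 372 STAT3 reads (17.9 RPM). STAT5 was thus 1.66 times as high (95% interval 1.45 to 1.90), short of the 2-fold limit used for a call. With background scaling the ratio was 2.30 (2.01 to 2.63), and STAT5 was then called higher. The site ranked 658 with STAT5 and 580 with STAT3 among the 86150 sites of the genome, which places it in the top 0.764% and 0.673%. Its tallest 200 bp window had 362 STAT5 and 276 STAT3 reads of the 400 that a window can hold with 1 read per position and strand, which limits both counts. With a correction for positions already taken, its ratio was 2.04 (1.78 to 2.33). The correction treats reads as spread evenly over the 400 bp, whereas they were denser at the summit, so it may be too small.

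The neighbouring site 33.8 kb upstream of Il22, 1500 bp away and from 117607951 to 117608350, had nearly the same STAT5 count but far fewer STAT3 reads. It had 533 STAT5 reads (29.7 RPM) and 61 STAT3 reads (2.93 RPM), a ratio of 10.1 (7.75 to 13.4). With the same correction the ratio was 16.0 (12.3 to 21.2). The intervals of the ratios of these neighbours do not overlap in either case. Only a STAT5 region was called here, but the 46 STAT3 reads in its tallest window are 26.1-fold over the genome-wide STAT3 mean, and with the genome-wide mean alone a STAT3 region was called here too.

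Further STAT5 reads flanked this pair. At 26.0 kb upstream of Il22, from 117615701 to 117616200, the counts were 124 STAT5 reads (6.90 RPM) and 81 STAT3 reads (3.90 RPM), a ratio of 1.77 (1.33 to 2.37). The site 39.3 kb upstream had 43 STAT5 reads against 5 of STAT3, a ratio of 9.95 (3.95 to 32.2). Another place, 36.6 kb upstream, had 115 STAT5 and 14 STAT3 reads but was called only when the genome-wide mean alone was used, as was a place 34.8 kb upstream with 87 STAT5 and 19 STAT3 reads. STAT5 was higher at both, with ratios of 9.50 (5.44 to 17.9) and 5.30 (3.20 to 9.22). These places were described after their values were seen. On the other side of the site 32.3 kb upstream, a place 31.0 kb upstream that also needed the genome-wide mean had 23 STAT5 and 34 STAT3 reads, a ratio of 0.783 (0.440 to 1.37). Over the locus, the genome-wide mean alone added 9 STAT5 and 12 STAT3 regions that overlapped no other region of the same library.

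**Figure D2:**
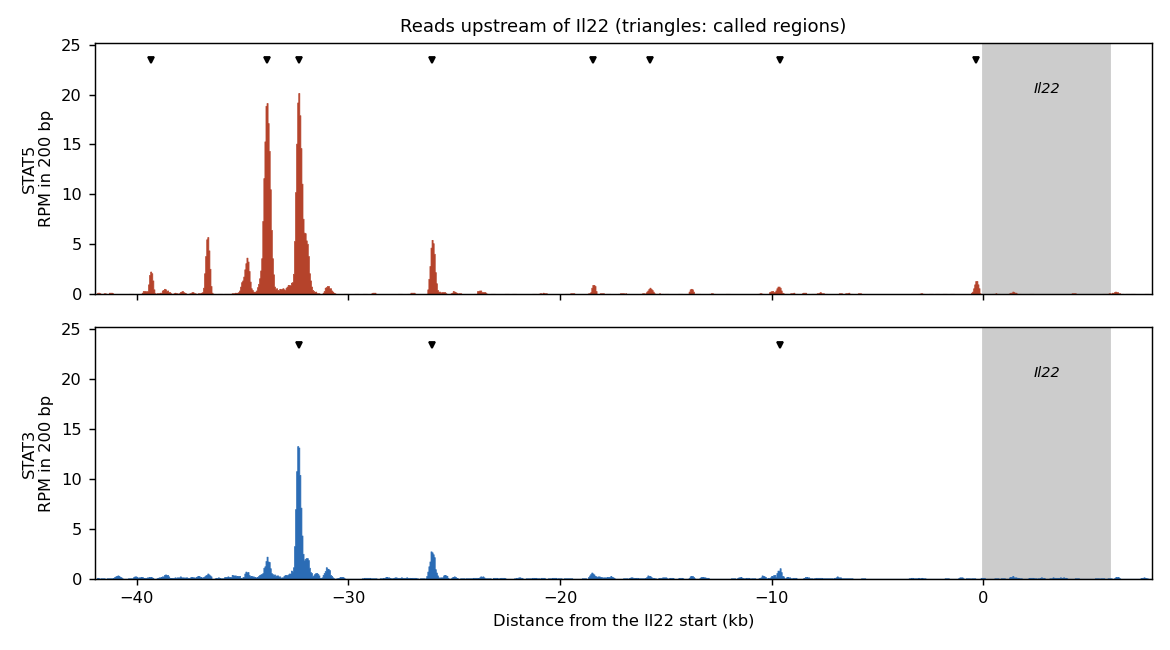
STAT5 (top) and STAT3 (bottom) RPM in windows of 200 bp from 42 kb upstream to 8 kb downstream of the Il22 start, with the gene shaded and triangles at called regions. The pair of tall STAT5 peaks has 533 and 534 reads in 400 bp, and the STAT3 peak of the right one has 372 against 61 at the left one.

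Nearer to Il22 the sites were low. The sites 18.4, 15.7 and 9.60 kb upstream had 15 to 19 STAT5 reads and 9 to 23 STAT3 reads. All 3 intervals of the RPM ratio included 1. With background scaling, the site at 15.7 kb had a ratio of 2.67 (1.09 to 6.92), wholly above 1. The site nearest to the Il22 start lay 0.35 kb before it, from 117641501 to 117641850. It was a region of STAT5 only, with 29 STAT5 reads (1.61 RPM) and 1 STAT3 read (0.0481 RPM), and the ratio of 33.6 has an interval from 5.56 to 1370. In the 4 kb around the start the counts were 40 with STAT5 and 18 with STAT3, a ratio of 2.57 (1.44 to 4.76). This value depended on the width, with 5.98 (2.46 to 17.5) for 1 kb and 1.43 (0.913 to 2.26) for 5 kb to either side of the start. The gene itself had 14 STAT5 and 28 STAT3 reads, or 2.33 and 4.67 per kb, below the genome-wide means of 7.61 STAT5 and 8.80 STAT3 reads per kb. No site lay within the gene.

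Downstream of Il22 both libraries were nearly empty over a long stretch. Of the 380 bins of 1 kb in the locus, 87 (22.9%) had no read of either library, against 8.59% over the genome. Stretches of at least 10 kb with no read numbered 4 and made up 66 kb; the longest ran for 29 kb from 117762000 to 117790999. The part of the genome to which 25 nt reads can be assigned was not measured here, so absence of reads there cannot be read as absence of binding. Beside such stretches lay the site 46.1 kb downstream of the Il22 start, with 17 STAT5 and 19 STAT3 reads, and that 64.2 kb downstream, with 28 and 11. The next site was 101 kb further on, the longest gap of the locus.

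The region upstream of Ifng held 5 sites within 72 kb, and STAT5 was called higher than STAT3 at 3 of them, against 25.1% of all sites in the genome. With so few sites nothing is read from this count. At 22.6 kb upstream, from 117855201 to 117855600, there were 258 STAT5 reads (14.4 RPM) and 15 STAT3 reads (0.722 RPM). This ratio of 19.9 (11.8 to 36.1) had the lower bound farthest from 1 in the locus, and the site ranked 5449 with STAT5 but 64352 with STAT3 in the genome. With the correction for positions already taken, its ratio was 23.8 (14.2 to 43.1). The adjacent site 21.6 kb upstream, from 117856001 to 117856600 and 950 bp away, had 142 STAT5 reads (7.90 RPM) and 82 STAT3 reads (3.95 RPM), a ratio of 2.00 (1.52 to 2.66). With background scaling it was 2.77 (2.10 to 3.69), and STAT5 was then called higher here too. As at Il22, a site rich in STAT5 with few STAT3 reads stood beside one with both, and the 2 intervals do not overlap. The locus held 5 pairs of neighbouring sites within 2 kb, and these pairs were picked out after their values were seen. No share of such pairs over the genome is given, so no pattern is read from them.

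Farther upstream the counts were lower. The site 33.8 kb upstream of Ifng, from 117844001 to 117844500, had 52 STAT5 reads (2.89 RPM) and 5 STAT3 reads (0.241 RPM), a ratio of 12.0 (4.84 to 38.6). The site 54.5 kb upstream had 41 STAT5 and 5 STAT3 reads, a ratio of 9.49 (3.75 to 30.8). At 70.3 kb upstream the libraries were level, with 60 STAT5 and 68 STAT3 reads and a ratio of 1.02 (0.709 to 1.47).

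At the Ifng gene both libraries had low sites of similar height. The site nearest to the start, 1.20 kb after it and from 117879051 to 117879300, was a region of STAT3 only, with 16 STAT5 reads (0.891 RPM) and 24 STAT3 reads (1.15 RPM), a ratio of 0.771 (0.383 to 1.51). With the genome-wide mean alone a STAT5 region was called at this site too. The site 2.20 kb after the start was a region of both, with 33 STAT5 and 37 STAT3 reads and a ratio of 1.03 (0.625 to 1.70). In the 4 kb around the start the counts were 41 with STAT5 and 62 with STAT3, a ratio of 0.765 (0.503 to 1.15), or 1.06 (0.696 to 1.60) with background scaling. The gene had 18.2 STAT5 and 23.2 STAT3 reads per kb, both above the genome-wide means, whereas the body of Il22 was below them. How far reads can be assigned in either gene was not measured.

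Downstream of the Ifng start there were 16 sites. STAT5 was called higher at 4 of them and STAT3 at 0, against 25.1% and 2.42% of all sites in the genome. The interval of the ratio lay wholly below 1 at 3 of the 16, against 17.2% of all sites. With background scaling it did so at 1, against 7.03% of all sites. These counts are small and near the genome shares, so nothing is read from them. The tallest with STAT5 lay 40.1 kb downstream, from 117917851 to 117918300, with 400 STAT5 reads (22.3 RPM) and 51 STAT3 reads (2.45 RPM), a ratio of 9.07 (6.77 to 12.4). Its tallest 200 bp window had 326 STAT5 reads of the 400 possible. With the correction for positions already taken, the ratio was 12.2 (9.08 to 16.6). The next site, 46 kb downstream and from 117923701 to 117924150, was the tallest with STAT3 on this side. It had 70 STAT5 reads (3.90 RPM) and 183 STAT3 reads (8.80 RPM), a ratio of 0.443 (0.331 to 0.586). Over 5900 bp the order of the libraries was thus reversed, and with background scaling the ratio at 46 kb was still below 1, at 0.613 (0.458 to 0.811).

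The site 29.9 kb downstream of the Ifng start, from 117907651 to 117908100, also had more STAT3, with 52 STAT5 reads (2.89 RPM) and 114 STAT3 reads (5.48 RPM) and a ratio of 0.528 (0.373 to 0.739). With background scaling it was 0.731 (0.516 to 1.02), an interval that includes 1. Its neighbour 27.8 kb downstream, 2150 bp away, had 50 STAT5 and 9 STAT3 reads, a ratio of 6.43 (3.13 to 14.9). These sites had nearly equal STAT5 counts and differed in STAT3. At 54.7 kb downstream, from 117932401 to 117932850, there were 102 STAT5 reads (5.68 RPM) and 150 STAT3 reads (7.22 RPM), and the ratio of 0.787 (0.606 to 1.02), or 1.09 (0.838 to 1.41) with background scaling, had an interval that included 1. A STAT5 site 650 bp before it had 38 STAT5 and 16 STAT3 reads.

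**Figure D3:**
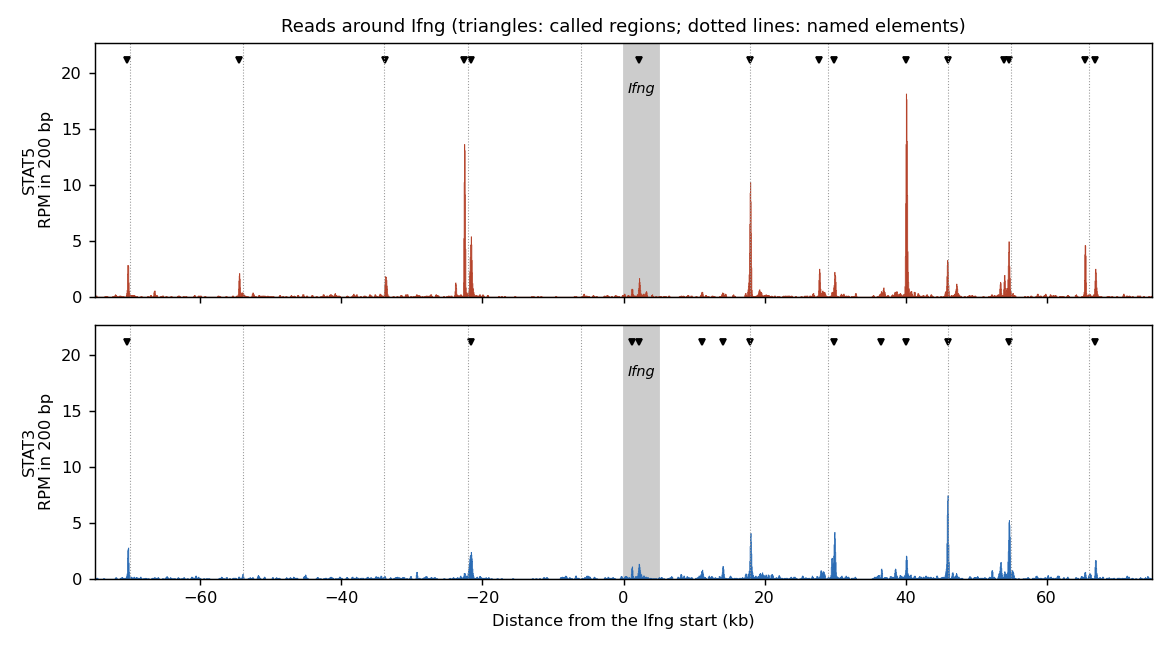
STAT5 (top) and STAT3 (bottom) RPM in windows of 200 bp from 75 kb upstream to 75 kb downstream of the Ifng start, with the gene shaded, triangles at called regions and dotted lines at 10 named elements. STAT5 is tallest 40.1 kb downstream (400 reads in 400 bp) and STAT3 46 kb downstream (183 reads).

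The site 18.0 kb downstream, from 117895701 to 117896200, was tall with both, at 219 STAT5 reads (12.2 RPM) and 102 STAT3 reads (4.91 RPM). Its ratio of 2.48 (1.96 to 3.17) was just short of a call, whereas it passed with reads counted in 200 bp, at 2.69 (2.06 to 3.55), and with background scaling, at 3.44 (2.71 to 4.39). The sites 11.2, 14.1 and 36.6 kb downstream were regions of STAT3 only, with 9 or 10 STAT5 and 19 to 30 STAT3 reads. Of these, the site at 14.1 kb had an interval wholly below 1 (ratio 0.386, 0.168 to 0.811), but not with background scaling (0.534, 0.233 to 1.12). Beyond 60 kb, STAT5 was higher 65.4 kb downstream, with 93 STAT5 and 16 STAT3 reads and a ratio of 6.73 (3.93 to 12.3), and 91.1 kb downstream, with 18 and 3 reads (6.94, 2.03 to 36.8). The site 66.9 kb downstream had 52 STAT5 and 42 STAT3 reads, and that 86.2 kb downstream 23 and 7.

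The sites around Ifng were set beside the elements known by name. The elements taken were the conserved elements 54, 34, 22 and 6 kb upstream and 18, 29, 46 and 55 kb downstream of the start, and the CTCF sites 70 kb upstream and 66 kb downstream. At 9 of these 10 there was a site within 1.5 kb, and 13 of the 19 sites from 72 kb upstream to 68 kb downstream lay that near to one, while the intervals around the elements cover 21.4% of that span. The exception was the element 6 kb upstream, where 3 kb held 12 STAT5 and 30 STAT3 reads. The tall STAT5 site 40.1 kb downstream was not near a listed element. The list was set beside the sites after these were known, and the span was set by its outermost elements. No enrichment is therefore read from these counts, and nearness in kb does not show that a site is the element.

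**Figure D4:**
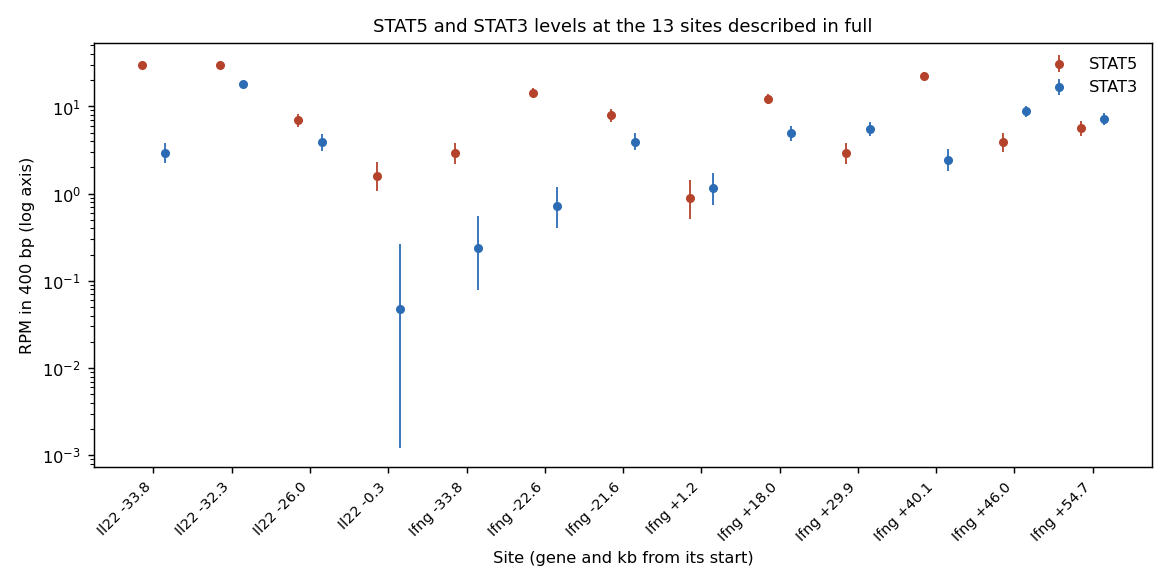
STAT5 and STAT3 RPM in 400 bp, on a log axis, at the 13 sites given in full, in order along the chromosome, with exact Poisson 95% intervals. STAT5 lies above STAT3 at 9 of the 13. The ratio is below 1 at 4, all downstream of the Ifng start, with an interval wholly below 1 at 29.9 and 46 kb (at 46 kb alone with background scaling). Some of the 13 were chosen for a large STAT5 over STAT3 ratio, so nothing is read from this split.

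Over the whole locus STAT5 was called higher, with an interval of the ratio wholly beyond 2-fold, at 10 of 31 sites (32.3%), and STAT3 at 0. Of all sites in the genome 25.1% were called higher with STAT5 and 2.42% with STAT3, so the STAT5 share is near the background. With background scaling STAT5 was called higher at 15 (48.4%) and STAT3 at 0, against 32.5% and 0.781% of all sites in the genome. Of the 10, 9 were regions of STAT5 only, and they had 18 to 533 STAT5 reads and 1 to 61 STAT3 reads. Intervals lay wholly above 1 at 17 sites (54.8%) and wholly below 1 at 3 (9.68%), against 42.2% and 17.2% of all sites in the genome. The 3 all lay downstream of Ifng, at 14.1, 29.9 and 46 kb, and with background scaling the interval stayed wholly below 1 at 46 kb alone (3.23%, against 7.03% of all sites). The segments differed in their totals: STAT5 over STAT3 was 2.08 (1.94 to 2.24) within 50 kb of Il22, as far as the locus reaches, and 1.28 (1.20 to 1.36) within 50 kb of Ifng. Of the 2128 STAT5 and 1183 STAT3 reads within 50 kb of Il22, 534 and 372 lay at the site 32.3 kb upstream. A further 533 and 61 lay at the site 33.8 kb upstream, so the ratio of this segment rests largely on these neighbours and does not describe its whole length. Between the segments the ratio was 0.981 (0.852 to 1.13), and beyond them 1.03 (0.902 to 1.18). With background scaling the ratio was 1.36 (1.18 to 1.56) between them, 1.43 beyond them and 1.77 within 50 kb of Ifng. Each of these intervals lay wholly above 1, so the level ratios between and beyond the segments depended on the scaling.

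**Figure D5:**
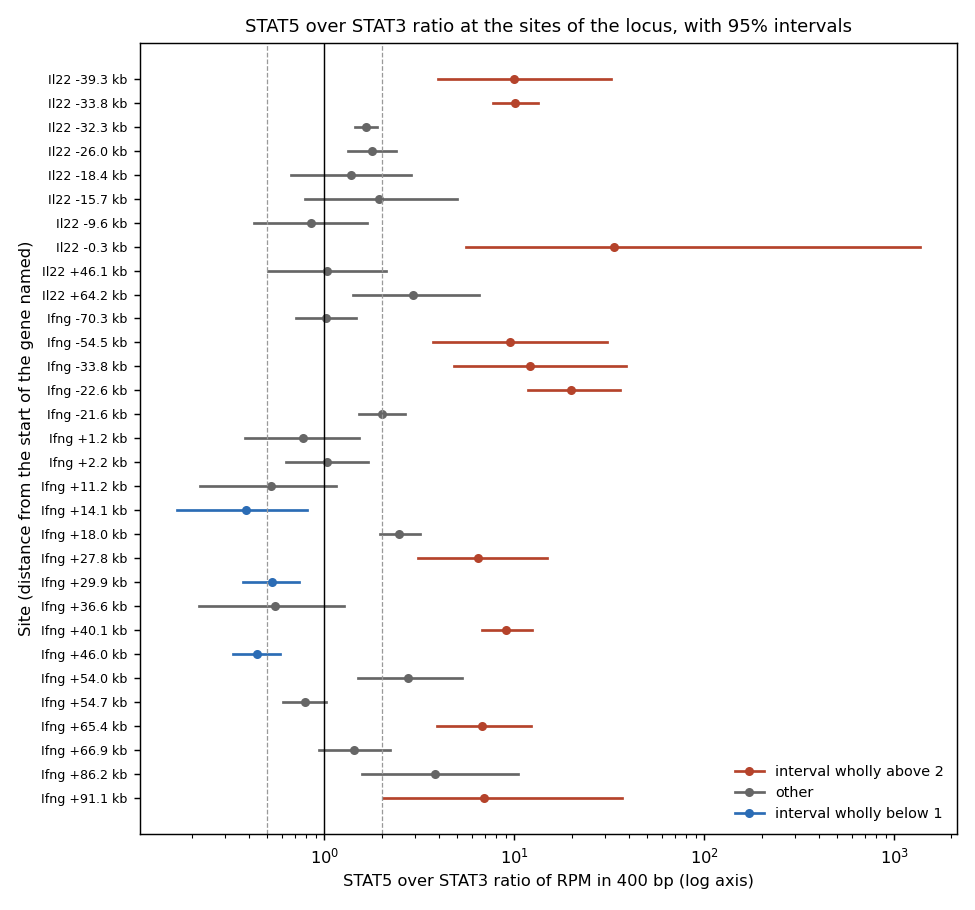
STAT5 over STAT3 ratio of RPM in 400 bp at the 31 sites, in order along the chromosome, on a log axis with exact 95% intervals. The line marks a ratio of 1 and the dashed lines 0.5 and 2. At 10 sites the interval lies above 2, and at 3, all downstream of Ifng, it lies below 1; with background scaling these numbers were 15 and 1.

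Where both libraries had at least 30 reads, their fragments were centred close to each other. At 12 such sites the median fragment position differed by a median of 15.3 bp, and by 25 bp or less at 8, whereas over 36051 such sites of the genome the median was 15.5 bp and 69.3% lay within 25 bp. Around Ifng the largest offsets were at 54.7 kb downstream, where STAT5 fragments were centred 50.5 bp before those of STAT3, and at 29.9 kb downstream, where they were centred 48.0 bp after them. At the 2 tall sites upstream of Il22 the STAT5 centre lay 18.0 bp before and 18.5 bp after the STAT3 centre. Over the 293 bins of 1 kb with a read, STAT5 and STAT3 counts had a Spearman's rho of 0.702 and, as log2(reads + 1), a Pearson's r of 0.750, a description of bins in which both libraries share the positions open to read assignment.

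The locus was dense in sites when set beside the genome. It held 81.6 sites per Mb of its full length, against 39.8 on chromosome 10 and 36.5 in the genome per Mb of bins with a read. Of 6778 genome bins as long as the locus, 85.4% had fewer sites and 84.8% fewer STAT5 reads, and the median bin had 7 sites and 1504 STAT5 reads. For STAT3 72.9% of bins had fewer reads (median 2063), and 96.9% had a lower STAT5 over STAT3 ratio (median 0.810). The median site of the locus had 43 STAT5 and 22 STAT3 reads, against 39 and 33 over all sites of the genome. This is 1 place, and no test was made of these differences.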

How the data were processed

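The deposited files list aligned reads, 1 line per read of 25 nt, with start and end counted from 1. Per the submitters' processing notes the build is mm9, and no aligner or filter is named in the sources used here. The deposited score was 0 in every line and was not used. No position and strand held more than 1 nuclear read, so 400 bp can hold at most 800. Read 5′ ends were shifted by 50 bp in the 3′ direction and counted in 200 bp windows, with a step of 50 bp, on autosomes and sex chromosomes (scipy 1.17.1, numpy 2.4.6, pandas 2.3.3 and matplotlib 3.10.9 under Python 3.11.15). The genome-wide mean was taken over 2360778000 bp of 1 kb bins with a read. P-values were adjusted over all windows with a read, called windows within 100 bp were joined, and regions with over 80% of summit reads on 1 strand were left out (184 STAT5 and 106 STAT3 regions). Sites were centred on the summit with the highest RPM. Ratios are of STAT5 over STAT3 RPM with exact conditional (Clopper-Pearson) 95% intervals, and no p-value was computed between libraries. The caller was tested on simulated reads. Sites described in full are the 10 with the largest RPM, the nearest to each gene start, any called higher with STAT3, and the 5 with the largest ratio by lower bound; others were described after their values were seen. Members and lists were chosen with earlier results of these data known. Alternatives changed thresholds, local mean, shift, strand filter, depth, overlap, scaling, limit and width. No sequence of mm9 was used, so site sequences are not printed.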

Additional observations from a re-analysis of the deposited data

How the results depend on the processing

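Of 73 planned recalculations of counts and segment ratios, 61 were classed as unchanged. This class was broad for counts. It held a rise in sites higher with STAT5 from 10 to 15 and in all sites from 31 to 42. It also held the segment beyond Ifng, where background scaling moved the ratio from 1.03 to 1.43 and its interval wholly above 1. The 61 is therefore not read as a measure of stability. With a minimum fold of 8, there were 17 STAT5 and 10 STAT3 regions, 20 sites, 7 shared sites and 6 sites higher with STAT5. Against the genome-wide mean only, STAT3 regions numbered 29 and shared sites 21, a setting in which neighbouring sites do not raise the mean. STAT3 regions were then called also at STAT5-only sites, such as those 18.4 kb upstream of Il22 and 27.8, 54.0 and 65.4 kb downstream of Ifng. Sites higher with STAT5 ranged from 6 to 15 over the alternatives. Sites higher with STAT3 numbered 1 with an interval beyond 1.5-fold and 0 in the others. Scaling by reads in region-free bins of 10 kb multiplies each ratio by 1.38. Under it the STAT5 over STAT3 ratio was 2.88 within 50 kb of Il22, now wholly beyond 2-fold. It passed from below to above 1 between the segments (1.36) and around the Ifng start (1.06). The same held at the sites 1.20 and 54.7 kb downstream of the Ifng start (1.07 and 1.09). All of these that passed 1 had intervals that included 1 before. Only the interval between the segments excluded 1 afterwards, so no order is read from the others. At 14.1 and 29.9 kb the interval then reached 1.12 and 1.02, while at 46 kb it stayed below 1 (0.458 to 0.811). The 5 calls it added were 32.3 kb upstream of Il22, and 21.6 kb upstream and 18.0, 54.0 and 86.2 kb downstream of Ifng. With 1 kb to either side of the Il22 start the ratio was 5.98 (2.46 to 17.5), and with 5 kb 1.43 (0.913 to 2.26). A correction for positions already taken, chosen after the data were seen, gave 11 sites higher with STAT5, the added one lying 18.0 kb downstream of the Ifng start. Beyond what each threshold or scaling fixes, the cause was not tested. No paired analysis was possible because each antibody has 1 library. At sites with under 20 reads of both libraries only ratios far from 1 are detectable.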
